A study of Mus musculus with 14 samples.

Results

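Interferon response and antigen presentation genes were followed through 5 sorts of mouse brain cells. The 37 members were chosen by symbol, as the effectors that interferon induces, the transcription factors that induce them, and the genes that load and display peptides on major histocompatibility complex (MHC) class I and class II molecules. Of these, 36 had a probe set with a single gene symbol, out of 18193 such genes on the array, and Isg15 was not analysed here because its probe set carries several symbols. The values are array intensities, and each gene is given by its brightest probe set. The members were chosen by symbol, but with earlier results of these data known.

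All groups came from hGFAP eGFP mice aged 8 weeks. These mice carry green fluorescent protein (GFP) under the promoter of human GFAP, and all cells were collected by fluorescence-activated sorting. The subependymal zone (SEZ), the neurogenic layer beside the lateral ventricle, gave 4 sorts. SEZ_GFPprom (n = 4) was gated on GFP together with prominin, a protein of the cell surface, SEZ_GFP (n = 2) on GFP, SEZ_Prom (n = 2) on prominin and SEZ_CD24 (n = 2) on CD24. DIEC_GFP (n = 4), gated on GFP in the diencephalon, is labelled astrocytes, the SEZ sorts for GFP or prominin are labelled neural stem cells, and the CD24 sort is labelled ependymal cells. Arrays of 1 sort are labelled as biological replicates, and nothing is said of separate animals or pools, so each p reflects how far these arrays spread, and the small number of arrays limits the precision.

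Interferons are cytokines that cells release on sensing viral nucleic acid. Type I interferon acts on antiviral genes through Stat2 and Irf9 and the interferon-stimulated response element (ISRE) of their promoters, and interferon gamma acts through the gamma-activated sequence (GAS). Class I molecules display peptides from inside the cell on nearly all nucleated cells, while class II molecules display peptides from ingested protein and are, in the brain, known mainly from microglia and border macrophages.

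The sorts were checked against marker genes of other cell types. The CD24 sort went against its label, since the summed intensity of 10 ependymal markers was 864 and 436 in its arrays, while it was 14986 to 24623 in SEZ_GFPprom, 1390 and 796 in SEZ_GFP, 1893 and 1975 in SEZ_Prom and 7196 to 10135 in DIEC_GFP. It is therefore called the CD24 sort here. The 9 neuroblast markers summed to 5356 to 7226 in SEZ_GFPprom, 14999 and 17361 in SEZ_GFP, 4977 and 2251 in SEZ_Prom and 15850 and 26792 in SEZ_CD24, against 1090 to 1565 in DIEC_GFP. Oligodendrocyte marker sums (6 genes) were 5984 to 7714, 1956 to 2922, 23026 to 23746, 5459 to 8172 and 20864 to 28869 in that order. Astrocyte sums (10 genes) were 17628 to 20145, 15941 to 20348, 19004 to 21689, 5029 to 14172 and 19342 to 32776. Choroid plexus sums (8 genes) were 421 to 7754, 512 to 9264, 12880 to 13426, 9212 to 14865 and 1208 to 8730. No sort was therefore taken as pure. Markers of microglia (17 of 18 measured) summed to 1966 to 3310 in SEZ_GFPprom, 937 and 1220 in SEZ_GFP, 4400 and 6748 in SEZ_Prom, 23726 and 10851 in SEZ_CD24 and 1935 to 9116 in DIEC_GFP. Of these markers Itgam alone was at or under the array median of 27 in all 14 arrays. The 9 measured markers of border macrophages and monocytes, with Lyve1 at or under the median everywhere, summed to 255 to 327, 144 to 176, 526 to 834, 468 to 1926 and 448 to 1616 in the same order of sorts. Cd14, with up to 1508, and Lyz2, with up to 586, were the brightest of them. Endothelial sums (12 genes) were 271 to 483, 253 to 274, 214 to 296, 250 to 318 and 263 to 494. Lymphocyte and dendritic cell sums (11 genes) were 353 to 499, 290 to 293, 373 to 457, 436 to 1056 and 348 to 405. Of these markers, the endothelial Pecam1, Cdh5, Tek, Emcn, Tie1 and Vwf were at or under the median everywhere. So were Cd3d, Cd79a, Ms4a1, Itgax and Nkg7 of the other list. Others were brighter, with Cldn5 at 29 to 123 in SEZ_GFPprom and 32 to 128 in DIEC_GFP, and Ptprc at 641 in SEZ_CD24 replicate 1. In sorted cells measured in bulk, fewer cells of a type and less RNA per cell cannot be told apart.

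**Figure D1:**
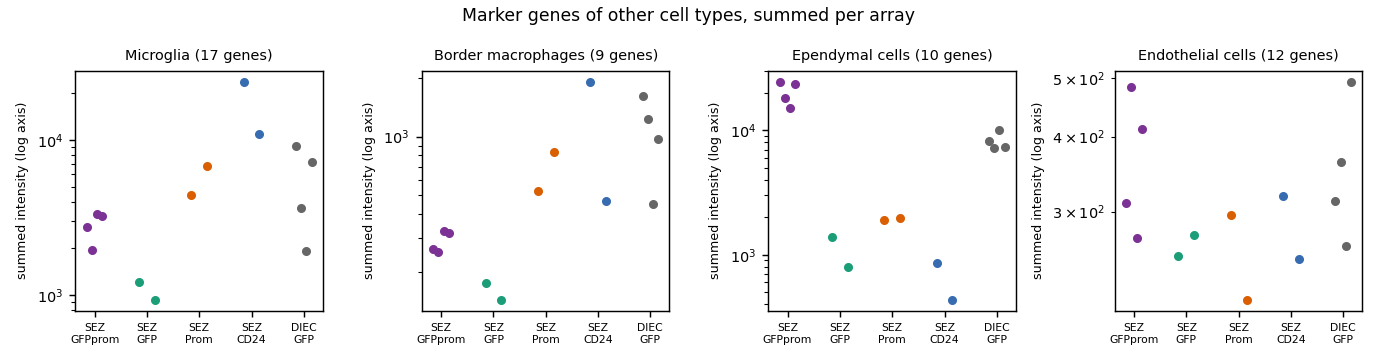
Summed intensity of marker genes of 4 other cell types, 1 point per array, on a log axis, with the sorts from left to right. The microglia sums of the CD24 arrays (23726 and 10851) lie above those of every other array, while their ependymal sums (864 and 436) lie far below the 14986 to 24623 of SEZ_GFPprom.

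The members spanned the range of the array's signals, which do not rank genes by expression. Their median of mean log2 intensities was 6.02, against 5.97 for all genes, 18 of 36 lay below the median gene, and 6 lay above the upper quartile. By limma's moderated F test for any difference among the 5 sorts, 15 of 36 members passed an adjusted p of 0.05, or 41.7%, against 25.8% of all genes tested. These were 8 of 18 effectors, 1 of 5 regulators, 3 of 8 class I genes and 3 of 5 class II genes. The smallest p belonged to H2-Aa, followed by Rsad2, Ifitm3 and H2-Ab1.

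Each SEZ sort was then compared with diencephalic cells, and the double-positive sort with each other SEZ sort. Comparisons that share a sort share its arrays, so their counts are not independent. A member was called where limma's p was under 0.05 after Benjamini-Hochberg adjustment over all 18193 genes. In all 43 calls the arrays of the sorts compared did not overlap. Of all genes, called or not, 19.4% (SEZ_GFPprom minus DIEC_GFP) to 33.8% (SEZ_GFPprom minus SEZ_CD24) did not overlap either. The lack of overlap therefore gives the calls no separate support. In SEZ_GFPprom minus DIEC_GFP, 3 of 36 members rose and 5 fell, where 10.1% of all genes rose and 7.78% fell (17.8% in all). In SEZ_GFP minus DIEC_GFP, 0 members rose and 7 fell, against 5.61% and 7.05% of all genes (12.7% in all). In SEZ_Prom minus DIEC_GFP, 0 rose and 4 fell, against 3.35% and 2.98% of all genes (6.33% in all). In SEZ_CD24 minus DIEC_GFP, 2 rose and 7 fell, against 6.9% and 9.74% of all genes (16.6% in all). Between SEZ sorts, 1 member rose and 0 fell in SEZ_GFPprom minus SEZ_GFP, where 2.63% of all genes rose and 0.539% fell (3.17% in all). In SEZ_GFPprom minus SEZ_Prom, 5 rose and 0 fell, against 4.4% and 2.76% of all genes (7.16% in all). In SEZ_GFPprom minus SEZ_CD24, 6 rose and 3 fell, against 8.98% and 4.74% of all genes (13.7% in all). At an unadjusted p under 0.05, limma put 6 members higher and 7 lower in SEZ_GFPprom minus DIEC_GFP, 2 and 11 in SEZ_GFP minus DIEC_GFP, 0 and 12 in SEZ_Prom minus DIEC_GFP and 2 and 9 in SEZ_CD24 minus DIEC_GFP. At that level it put 7 higher and 0 lower in SEZ_GFPprom minus SEZ_GFP, 9 and 2 in SEZ_GFPprom minus SEZ_Prom and 8 and 4 in SEZ_GFPprom minus SEZ_CD24. Of all 18193 genes, 5664, 4613, 3446 and 5221 passed that level in the comparisons with DIEC_GFP, taken in that order. In those between SEZ sorts, 2720, 3984 and 5139 did. The median log2 difference of the 36 members was -0.03, -0.48, -0.59 and -0.24 in the comparisons with DIEC_GFP, taken in that order, where the median of all genes was 0.08, 0.0, 0.02 and -0.01. It was 0.38, 0.36 and 0.28 in those of SEZ_GFPprom with SEZ_GFP, SEZ_Prom and SEZ_CD24, where that of all genes was 0.07, 0.04 and 0.1.

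**Figure D2:**
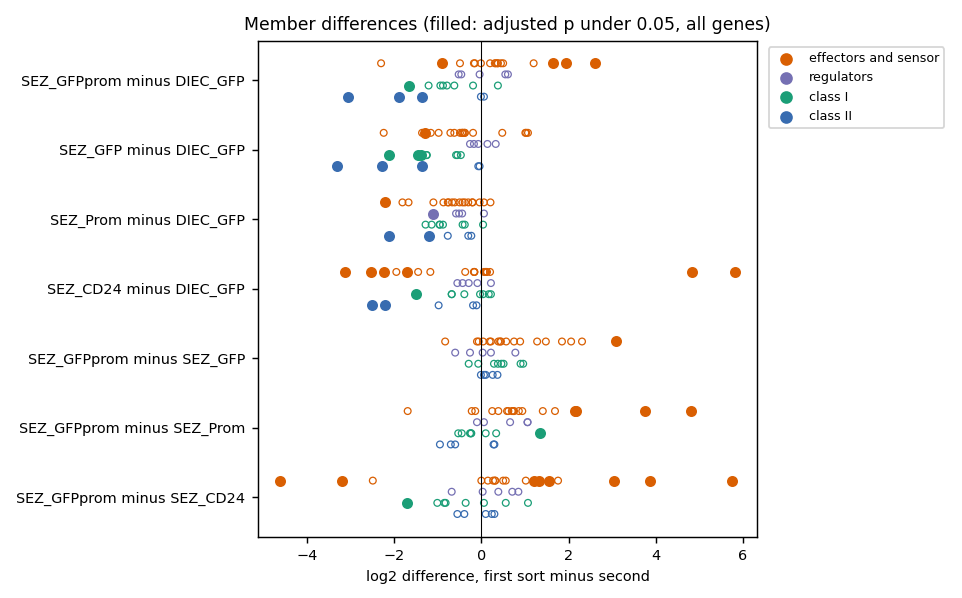
Log2 difference of each of the 36 members in the 7 comparisons, the first sort named minus the second, coloured by role, with filled points for an adjusted p under 0.05 over all genes. The filled class II points lie left of 0 in all 4 comparisons with DIEC_GFP, while the filled effector points lie on both sides and reach 5.81 in SEZ_CD24 minus DIEC_GFP.

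Among the antiviral effectors, Rsad2 and Isg20 stood out in the CD24 sort. Rsad2 encodes viperin, a radical SAM enzyme that blocks the replication of many viruses. Its intensity was 199, 283, 110 and 256 in SEZ_GFPprom, 202 and 152 in SEZ_GFP, 65 and 87 in SEZ_Prom, and 8951 and 2667 in SEZ_CD24, against 108, 87, 56 and 109 in DIEC_GFP. Both CD24 arrays were far above all 12 others, but they differed from each other by a wide margin (log2 12.25 ± 1.24, SD, n = 2, against 6.44 ± 0.45, n = 4, in DIEC_GFP). The difference was 56.1-fold over DIEC_GFP (limma, adjusted p = 3.79e-05). SEZ_GFPprom minus SEZ_CD24 was -4.61 on the log2 scale, so that SEZ_CD24 was 24.5-fold higher (adjusted p = 0.000111). The other probe sets of Rsad2 were likewise highest in SEZ_CD24, with 998 and 343 in SEZ_CD24, against 7 to 55 elsewhere, and, for the dimmest, 39 and 13 against 6 to 9.

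Isg20, an exonuclease that degrades single-stranded RNA, had 233, 58, 123 and 113 in SEZ_GFPprom, 29 and 27 in SEZ_GFP, 44 and 30 in SEZ_Prom, and 2913 and 390 in SEZ_CD24, against 49, 37, 19 and 56 in DIEC_GFP. Both CD24 arrays were again above all others, replicate 1 by far. It was 28.6-fold higher in SEZ_CD24 than in DIEC_GFP (limma, adjusted p = 0.000904) and 9.1-fold higher than in SEZ_GFPprom (adjusted p = 0.0138). The second of these calls rested on SEZ_CD24 replicate 1, without which the log2 difference of SEZ_GFPprom minus SEZ_CD24 was -1.74 (adjusted p = 0.14), against -3.19 with it. That array also had the highest microglia sum of all 14 (23726) and the highest Cd14 (1508). Its sum of border macrophage and monocyte markers (1926) was the highest of all 14 too. Of these markers, Lyz2 (283) and Ms4a7 (41) were at their highest of the SEZ arrays in it, while Mrc1, Cd163, F13a1 and Lyve1 were at 7, 8, 11 and 10. The part of microglia, border macrophages and monocytes in the Rsad2 and Isg20 levels was not tested. Of the other 16 effectors, 0 rose in SEZ_CD24 minus DIEC_GFP and 4 fell, where 6.9% of all genes rose and 9.74% fell.

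Ifitm3 and Ifitm2, interferon-induced transmembrane proteins that hinder the fusion of viruses with cell membranes, were highest in the double-positive sort. The ependymal marker sum was also highest there, followed by DIEC_GFP (14986 to 24623, against 7196 to 10135). The 10 mural cell markers summed to 1350 to 2643 in SEZ_GFPprom and 945 to 1732 in DIEC_GFP, against 246 to 981 in the other sorts. The part of ependymal and mural cells in the levels of Ifitm3, Ifitm2 and Gbp2 was not tested. Ifitm3 was 2261, 1367, 1539 and 2501 in SEZ_GFPprom, against 231 and 203 in SEZ_GFP, 85 and 52 in SEZ_Prom, 71 and 17 in SEZ_CD24, and 202, 195, 321 and 680 in DIEC_GFP. All 4 SEZ_GFPprom arrays were above all 10 others, the highest of which was DIEC_GFP replicate 4. SEZ_GFPprom was 6.1-fold above DIEC_GFP (limma, adjusted p = 0.00374), 8.58-fold above SEZ_GFP (0.0117), 27.9-fold above SEZ_Prom (0.000564) and 53.5-fold above SEZ_CD24 (8.31e-05). It was the only member of 36 called in all 3 comparisons of SEZ_GFPprom with other SEZ sorts. Of the other sorts, SEZ_CD24 lay below DIEC_GFP by a log2 difference of -3.13 (adjusted p = 0.00329) and SEZ_Prom by -2.2 (0.0475). The call against SEZ_GFP was lost without either SEZ_GFP array (adjusted p = 0.0877 and 0.155), and the call in SEZ_CD24 minus DIEC_GFP without SEZ_CD24 replicate 2 (0.0579). The call in SEZ_Prom minus DIEC_GFP was lost without any 1 of 10 arrays, namely both SEZ_Prom, both SEZ_GFP and all 4 SEZ_GFPprom arrays and DIEC_GFP replicates 3 and 4 (0.0566 to 0.307), while with the covariate named next it was -4.3 (0.00696). The 3' to 5' ratio is the log2 ratio of control transcripts' signals at both ends, a measure of RNA integrity. It was 4.94 ± 0.18 in SEZ_GFPprom and 5.40 ± 0.29 in DIEC_GFP (SD, n = 4 each). SEZ_GFP (4.628 to 4.822) and SEZ_Prom (4.577 to 4.675) did not overlap DIEC_GFP (5.041 to 5.743), while SEZ_CD24 (4.94 to 5.354) did. In comparisons of SEZ_GFP and SEZ_Prom with DIEC_GFP, the ratio and the sort are thus hard to tell apart, and differences under the covariate are uncertain. With the ratio as a covariate, SEZ_GFPprom minus DIEC_GFP was 1.36 for Ifitm3, against 2.61 without it, and missed the threshold (adjusted p = 0.0699).

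Ifitm2 lay at 111, 48, 44 and 53 in SEZ_GFPprom, against 50 and 32 in SEZ_GFP, 10 and 18 in SEZ_Prom, 24 and 17 in SEZ_CD24, and 17, 15, 19 and 27 in DIEC_GFP. The 4 double-positive arrays were apart from SEZ_Prom, SEZ_CD24 and DIEC_GFP and overlapped SEZ_GFP. SEZ_GFPprom was 3.12-fold above DIEC_GFP (limma, adjusted p = 0.00565), 4.43-fold above SEZ_Prom (0.00801) and 2.94-fold above SEZ_CD24 (0.0244). The call against SEZ_Prom was lost without SEZ_Prom replicate 1 (adjusted p = 0.121), the call against SEZ_CD24 without SEZ_CD24 replicate 1 (0.0547) or replicate 2 (0.202), and the call against DIEC_GFP with the 3' to 5' covariate (0.98, adjusted p = 0.143). Ifitm1, the third measured gene of the family, was dim, with 14, 20, 28 and 18 in SEZ_GFPprom and 10 to 20 in all other arrays, and was not called.

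Gbp2 and Rtp4 were also highest in the double-positive sort. Gbp2, a guanylate-binding protein that acts on the vacuoles of intracellular pathogens, had 362, 221, 237 and 526 in SEZ_GFPprom, against 88 and 46 in SEZ_GFP, 12 and 46 in SEZ_Prom, 46 and 10 in SEZ_CD24, and 127, 96, 45 and 85 in DIEC_GFP. All SEZ_GFPprom arrays were above the 10 others, as they were by the other probe set of Gbp2 (145 to 507, against 12 to 115). The difference was 3.82-fold over DIEC_GFP (limma, adjusted p = 0.0332), 13.5-fold over SEZ_Prom (0.00714), 14.7-fold over SEZ_CD24 (0.00355) and 4.97-fold over SEZ_GFP, which missed the threshold (0.109). The call against DIEC_GFP was lost without DIEC_GFP replicate 2, 3 or 4 or SEZ_GFPprom replicate 1 or 4 (adjusted p = 0.0552 to 0.0861). With the 3' to 5' covariate it was lost too (1.26, adjusted p = 0.382). The call against SEZ_Prom was lost without SEZ_Prom replicate 1 (0.116), and that against SEZ_CD24 without SEZ_CD24 replicate 2 (0.0586). Gbp3, of the same family, was 90, 135, 53 and 222 in SEZ_GFPprom and 45 to 149 in all other arrays, and was not called.

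Rtp4, an interferon-inducible member of the receptor transporter proteins, was 257, 79, 206 and 326 in SEZ_GFPprom, against 43 and 66 in SEZ_GFP, 30 and 61 in SEZ_Prom, 21 and 26 in SEZ_CD24, and 133, 178, 114 and 128 in DIEC_GFP. The diencephalic arrays lay within the range of the double-positive ones (log2 difference 0.5, limma, adjusted p = 0.427), and the other SEZ sorts lay below both. SEZ_GFPprom exceeded SEZ_CD24 8.22-fold (adjusted p = 0.00198) and SEZ_Prom 4.49-fold (0.0208), and SEZ_CD24 minus DIEC_GFP was -2.54 (0.00374). The call against SEZ_Prom was lost without SEZ_Prom replicate 1 (0.226) or SEZ_GFPprom replicate 1 (0.0525). By the mean of its probe sets, of which the other lay at 4 to 12 in all arrays, the difference from SEZ_CD24 was 1.94 in place of 3.04.

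Ifit3 and Ifi27 ran the other way and were highest in diencephalic cells. Ifit3, a tetratricopeptide protein that stabilises the binding of related proteins to viral RNA, was 146, 94, 54 and 103 in SEZ_GFPprom, 83 and 61 in SEZ_GFP, 116 and 91 in SEZ_Prom, and 39 and 36 in SEZ_CD24, against 165, 217, 147 and 179 in DIEC_GFP. Every SEZ array lay below every diencephalic array, by as little as 146 against 147. The log2 difference from DIEC_GFP was -0.91 in SEZ_GFPprom (limma, adjusted p = 0.0362), -1.3 in SEZ_GFP (0.0218) and -2.23 in SEZ_CD24 (0.000821). SEZ_GFPprom in turn exceeded SEZ_CD24 2.49-fold (0.0208). The call in SEZ_GFPprom minus DIEC_GFP was lost without DIEC_GFP replicate 1, 2 or 4 or SEZ_GFPprom replicate 2, 3 or 4 (0.0576 to 0.0996) and under the 3' to 5' covariate (-1.26, adjusted p = 0.0509), that in SEZ_GFP without DIEC_GFP replicate 2 or either SEZ_GFP array (0.0529 to 0.228), and that between SEZ_GFPprom and SEZ_CD24 without either CD24 array (0.0754 and 0.137). The call in SEZ_CD24 minus DIEC_GFP was past the threshold without each array in turn. Its near-identical neighbour Ifit3b may share this probe set's sequence, so the gene behind the value is uncertain.

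Ifi27, a small hydrophobic protein of the mitochondrial membrane, was bright in every sort, at 674, 965, 919 and 1236 in SEZ_GFPprom, 726 and 871 in SEZ_GFP, 639 and 948 in SEZ_Prom, and 584 and 275 in SEZ_CD24, against 1278, 1259, 1120 and 1607 in DIEC_GFP. Only the CD24 sort differed past the threshold, by -1.7 from DIEC_GFP (limma, adjusted p = 0.00329) and 2.31-fold below SEZ_GFPprom (0.027). Both calls were lost without SEZ_CD24 replicate 2 (adjusted p = 0.0573 and 0.321), and the one against SEZ_GFPprom also without SEZ_GFPprom replicate 2 or 4 (0.0545 and 0.0598), with equal array medians (0.95 in place of 1.21, 0.0638) and with the 3' to 5' covariate (1.05, 0.0609).

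**Figure D3:**
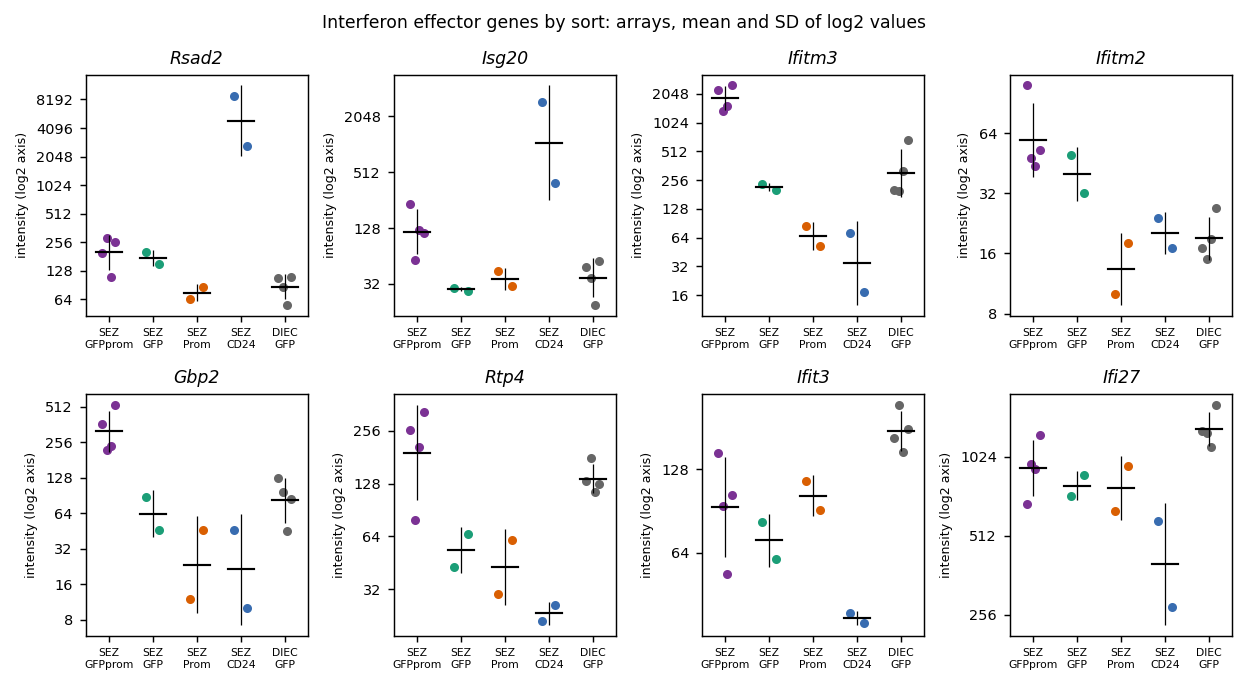
Intensity of 8 effector genes by sort on log2 axes, 1 point per array, with the mean and SD of the log2 values. Rsad2 and Isg20 are highest in SEZ_CD24 (2667 and 8951 for Rsad2), Ifitm3 and Gbp2 in SEZ_GFPprom (1367 to 2501 for Ifitm3), and Ifit3 and Ifi27 in DIEC_GFP.

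The other effectors and the cytoplasmic RNA sensor Ifih1 passed neither the F test nor any comparison. Xaf1, a pro-apoptotic interferon-induced protein, was 230, 199, 65 and 214 in SEZ_GFPprom and 40 to 371 in all other arrays. Ifit2 was highest in SEZ_GFP (340 and 240), against 70 to 264 in DIEC_GFP. Ifit1 and Oasl2 were dim, with no array above 61 and 22. Oas1b and Bst2 kept within 26 to 50 and 18 to 34 in all 14 arrays. Ifi35 varied most within a sort, at 235, 7, 8 and 126 in SEZ_GFPprom and 392, 79, 89 and 352 in DIEC_GFP, so that a log2 difference of -2.3 had an adjusted p of 0.191. Among these genes no rise or fall beyond the spread of the arrays was called.

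Of the 5 regulators, Stat2 alone passed the F test. It was dim, at 18, 17, 20 and 29 in SEZ_GFPprom, 27 and 36 in SEZ_GFP, 13 and 13 in SEZ_Prom, and 32 and 34 in SEZ_CD24, against 28, 21, 42 and 26 in DIEC_GFP. SEZ_Prom was the lowest sort, 2.18-fold below DIEC_GFP (limma, adjusted p = 0.0355). The call was lost without either SEZ_Prom array (0.178 and 0.2) or DIEC_GFP replicate 1 or 3 (0.0541 and 0.062), by the mean of its probe sets (-0.62 in place of -1.12, adjusted p = 0.128) and with the 3' to 5' covariate (-1.15, 0.265). Irf1, which interferon gamma induces, varied from 119 to 619 in SEZ_GFPprom, against 153 to 344 in all other arrays. Irf9, the DNA-binding partner of Stat2, stayed within 25 to 92 and Irf7, the amplifier of type I interferon, within 14 to 28. Usp18, which dampens signalling at the type I receptor, was dim, with no array above 35.

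Of the 5 class II members, 3 were called in at least 1 comparison with diencephalic cells, each time lower in the SEZ sort. Lower calls numbered 3, 3, 2 and 2 in SEZ_GFPprom, SEZ_GFP, SEZ_Prom and SEZ_CD24, taken in that order. Of all genes, 7.78%, 7.05%, 2.98% and 9.74% fell in these comparisons. H2-Aa encodes the alpha chain of the I-A molecule, H2-Ab1 its beta chain, and Cd74 the invariant chain that guards the peptide groove. H2-Aa was 24, 19, 34 and 31 in SEZ_GFPprom, 18 and 27 in SEZ_GFP, 39 and 66 in SEZ_Prom, and 44 and 34 in SEZ_CD24, against 198, 259, 282 and 163 in DIEC_GFP. By this brightest probe set, the highest SEZ array was under the lowest diencephalic array by a wide margin. The log2 difference from DIEC_GFP was -3.06 in SEZ_GFPprom (limma, adjusted p = 4.83e-05), -3.32 in SEZ_GFP (0.000118), -2.12 in SEZ_Prom (0.00283) and -2.51 in SEZ_CD24 (0.000383). The comparisons share the diencephalic arrays.

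H2-Ab1 was likewise highest in diencephalic cells, at 32, 38, 24 and 50 in SEZ_GFPprom, 24 and 30 in SEZ_GFP, 46 and 69 in SEZ_Prom, and 32 and 25 in SEZ_CD24, against 100, 119, 173 and 139 in DIEC_GFP. Its log2 differences from DIEC_GFP were -1.9 in SEZ_GFPprom (limma, adjusted p = 0.000591), -2.28 in SEZ_GFP (0.000741), -1.21 in SEZ_Prom (0.0388) and -2.2 in SEZ_CD24 (0.000618). Cd74 was 64, 40, 38 and 66 in SEZ_GFPprom, 57 and 45 in SEZ_GFP, 74 and 79 in SEZ_Prom, and 70 and 62 in SEZ_CD24, against 125, 128, 90 and 200 in DIEC_GFP. It fell in SEZ_GFPprom by 1.37 (adjusted p = 0.00429) and in SEZ_GFP by 1.36 (0.0147), while the differences of -0.98 in SEZ_CD24 and -0.77 in SEZ_Prom missed the threshold (0.054 and 0.207). H2-Eb1, the beta chain of the I-E molecule, was near the array median in every sort (26 to 28 in SEZ_GFPprom, 18 to 36 in DIEC_GFP) and was not called. Ciita, the master activator of class II genes, stayed within 13 to 20 in all 14 arrays.

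The calls of H2-Aa and H2-Ab1 in SEZ_GFPprom, SEZ_GFP and SEZ_CD24, and of Cd74 in SEZ_GFPprom, were past the threshold without each array in turn. Those in SEZ_Prom were not, since H2-Aa missed it without SEZ_Prom replicate 1 (adjusted p = 0.055) and H2-Ab1 without any 1 of 9 arrays, namely both SEZ_Prom and both SEZ_GFP arrays, SEZ_GFPprom replicates 1 and 2 and DIEC_GFP replicates 2, 3 and 4 (0.0533 to 0.338). With the 3' to 5' covariate H2-Aa in SEZ_Prom missed it too (-1.98, adjusted p = 0.0854), and by the mean of probe sets so did H2-Ab1 (-0.57, 0.297). Cd74 in SEZ_GFP missed it without either SEZ_GFP array (0.0604 and 0.167). All probe sets of H2-Aa and H2-Ab1 are marked as sharing sequence with other transcripts, which may be of the same gene. Averaging all probe sets of the gene gave smaller differences, of -1.41 for H2-Aa and -1.02 for H2-Ab1 in SEZ_GFPprom minus DIEC_GFP. By a dimmer probe set of each gene, DIEC_GFP and SEZ arrays overlapped (46 to 57 and 14 to 57 for H2-Aa, 17 to 47 and 13 to 37 for H2-Ab1). By another of each they did not (78 to 133 and 26 to 57, 18 to 34 and 9 to 16). The dimmest of H2-Aa was at 5 to 8 in all arrays. Several border macrophage markers moved with the class II genes. F13a1 was 8 to 31 in all SEZ arrays, against 47 to 135 in DIEC_GFP, Mrc1 7 to 15, against 11 to 173, Cd163 5 to 8, against 8 to 77, and Ms4a7 28 to 41, against 47 to 130. Lyz2 (12 to 283, against 119 to 586), Pf4 (13 to 49, against 28 to 95) and Lyve1 (8 to 11, against 11 to 22) did so with overlap. Cd14 and Ccr2 did not. Cd14 was 309 and 591 in SEZ_Prom and 1508 and 273 in SEZ_CD24, against 68 to 662 in DIEC_GFP. Ccr2 was 23 to 40 in SEZ arrays, against 15 to 37. Ms4a7 had its 130 in DIEC_GFP replicate 3, the array with the highest H2-Aa (282) and H2-Ab1 (173), whereas F13a1, Mrc1, Cd163 and the microglia sum were at their lowest of that sort there (47, 11, 8 and 1935). The part of these cells in the class II levels was not tested.

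Class I genes had negative median differences from diencephalic cells in every SEZ sort, but few were called. Lower calls were made for 1 of 8 in SEZ_GFPprom, 3 in SEZ_GFP, 0 in SEZ_Prom and 1 in SEZ_CD24, where 7.78%, 7.05%, 2.98% and 9.74% of all genes fell, and 0 rose. At an unadjusted p under 0.05, limma put 3, 5, 3 and 1 of the 8 on either side, against 5664, 4613, 3446 and 5221 of all 18193 genes. The median log2 difference of the 8 class I members from DIEC_GFP was -0.83 in SEZ_GFPprom, -1.26 in SEZ_GFP, -0.92 in SEZ_Prom and -0.21 in SEZ_CD24. H2-D1, a classical class I heavy chain, was 339, 345, 349 and 150 in SEZ_GFPprom, 374 and 313 in SEZ_GFP, 426 and 384 in SEZ_Prom, and 1273 and 657 in SEZ_CD24, against 1218, 762, 703 and 962 in DIEC_GFP. The other SEZ sorts lay below both the CD24 sort and the diencephalic arrays, which overlapped each other (log2 difference 0.04, limma, adjusted p = 0.973). SEZ_GFPprom was 3.18-fold below DIEC_GFP (limma, adjusted p = 0.00392) and 3.27-fold below SEZ_CD24 (0.0123), and SEZ_GFP was 2.6-fold below DIEC_GFP (0.0328). The call against SEZ_CD24 was lost without SEZ_CD24 replicate 1 (0.12), and that of SEZ_GFP without either SEZ_GFP array or DIEC_GFP replicate 1 or 4 (0.0534 to 0.239). Under the 3' to 5' covariate both calls against DIEC_GFP were lost (-1.57 in SEZ_GFPprom, adjusted p = 0.055, and -1.23 in SEZ_GFP, 0.311). By the mean of probe sets the difference from DIEC_GFP was -0.75 in SEZ_GFPprom (0.00886) and -0.52 in SEZ_GFP (0.117), and SEZ_GFPprom minus SEZ_CD24 was -0.91 (0.0103). Class I heavy chain genes are near-identical, and this probe set is marked as shared. By the brightest H2-D1 probe set without such a mark (62, 95, 113 and 98 in SEZ_GFPprom, 114 and 281 in SEZ_GFP, 115 and 108 in SEZ_Prom, 1000 and 298 in SEZ_CD24, and 345, 171, 164 and 195 in DIEC_GFP), the difference from DIEC_GFP was -1.21 in SEZ_GFPprom (adjusted p = 0.0654) and -0.22 in SEZ_GFP (0.868), and SEZ_GFPprom minus SEZ_CD24 was -2.6 (0.00653). The gene behind the H2-D1 values is therefore uncertain. H2-K1, the other classical heavy chain, was 478 to 608 in SEZ_GFPprom and 2107 and 553 in SEZ_CD24, against 611 to 1284 in DIEC_GFP, and was not called.

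B2m, the light chain that every class I molecule carries, was 101, 83, 174 and 239 in SEZ_GFPprom, 128 and 42 in SEZ_GFP, 165 and 163 in SEZ_Prom, and 550 and 106 in SEZ_CD24, against 303, 277, 333 and 360 in DIEC_GFP. It was 4.32-fold lower in SEZ_GFP than in DIEC_GFP (limma, adjusted p = 0.0445). In SEZ_GFPprom the difference of -1.21 missed the threshold (0.124). The SEZ_GFP call was lost without SEZ_GFP replicate 2 (-1.31, adjusted p = 0.433) and without any 1 of 8 other arrays, namely all 4 DIEC_GFP and both SEZ_Prom arrays and SEZ_GFPprom replicates 1 and 3 (0.0514 to 0.0765), and was -3.25 with the 3' to 5' covariate (adjusted p = 0.048).

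Of the genes that load class I molecules, Tap2 and Tapbp were called. Tap2, a subunit of the peptide transporter of the endoplasmic reticulum, was 56, 117, 62 and 53 in SEZ_GFPprom, 52 and 44 in SEZ_GFP, 46 and 63 in SEZ_Prom, and 52 and 41 in SEZ_CD24, against 174, 144, 168 and 70 in DIEC_GFP. It was 2.84-fold lower in SEZ_CD24 (limma, adjusted p = 0.0214) and 2.74-fold lower in SEZ_GFP (0.0316). Without either CD24 array the first call was lost (0.0663 and 0.156), as it was with the 3' to 5' covariate (-1.26, adjusted p = 0.0568), and without either SEZ_GFP array or DIEC_GFP replicate 1, 2 or 3 the second (0.0655 to 0.229). With the 3' to 5' covariate the SEZ_GFP difference was -0.79 in place of -1.45 (adjusted p = 0.56). Tapbp, or tapasin, which bridges the transporter and empty class I molecules, was 251, 225, 178 and 261 in SEZ_GFPprom, 114 and 119 in SEZ_GFP, 138 and 58 in SEZ_Prom, 136 and 86 in SEZ_CD24, and 121, 180, 202 and 206 in DIEC_GFP. SEZ_GFPprom was 2.53-fold above SEZ_Prom (adjusted p = 0.0378). That call was lost without SEZ_Prom replicate 2 (0.71, adjusted p = 0.367) and without either SEZ_GFP array or SEZ_GFPprom replicate 1, 2 or 4 (0.0559 to 0.084). Tap1, the other transporter subunit, and the immunoproteasome subunits Psmb8 and Psmb9 were not called, at 25 to 36, 27 to 69 and 27 to 72 in SEZ_GFPprom and 35 to 104, 44 to 155 and 22 to 71 in DIEC_GFP.

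Fitted with the 2 groups compared alone, 16 of the 43 calls missed the threshold. Against DIEC_GFP these were Ifit3 in SEZ_GFPprom (limma, adjusted p = 0.0809), Cd74 and Tap2 in SEZ_GFP, Ifitm3, Stat2 and H2-Ab1 in SEZ_Prom, and Ifitm3 and Tap2 in SEZ_CD24. Against SEZ_GFPprom they were Ifitm2, Rtp4 and Tapbp in SEZ_Prom, and Ifitm2, Ifit3, Ifi27, Isg20 and H2-D1 in SEZ_CD24. With values under 10 set to 10, 7 calls were lost, Gbp2 in SEZ_GFPprom (adjusted p = 0.0548), B2m, Tap2 and H2-D1 in SEZ_GFP and Ifitm3 and H2-Ab1 in SEZ_Prom against DIEC_GFP, and Tapbp in SEZ_GFPprom against SEZ_Prom (0.0572).

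**Figure D4:**
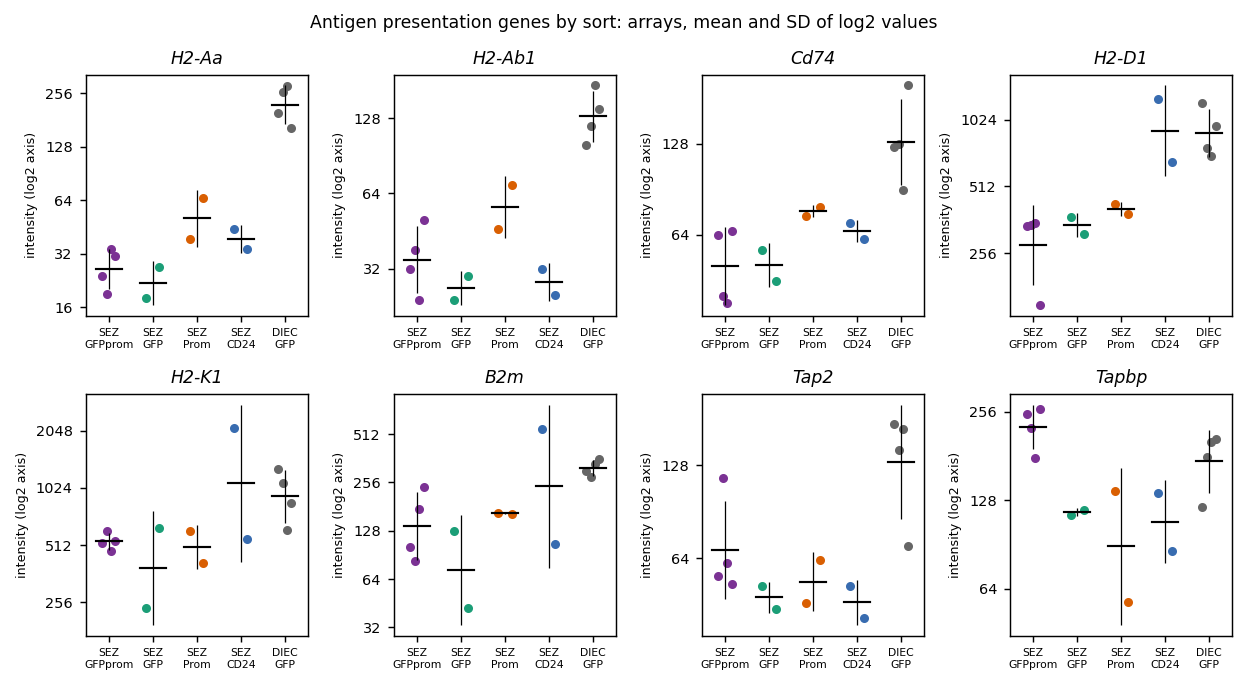
Intensity of 8 antigen presentation genes by sort on log2 axes, 1 point per array, with the mean and SD of the log2 values. For H2-Aa and H2-Ab1 every DIEC_GFP array (163 to 282 and 100 to 173) lies above all SEZ arrays, while H2-D1, H2-K1 and B2m have 1 SEZ_CD24 array above the DIEC_GFP arrays and 1 below them.

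**Figure D5:**
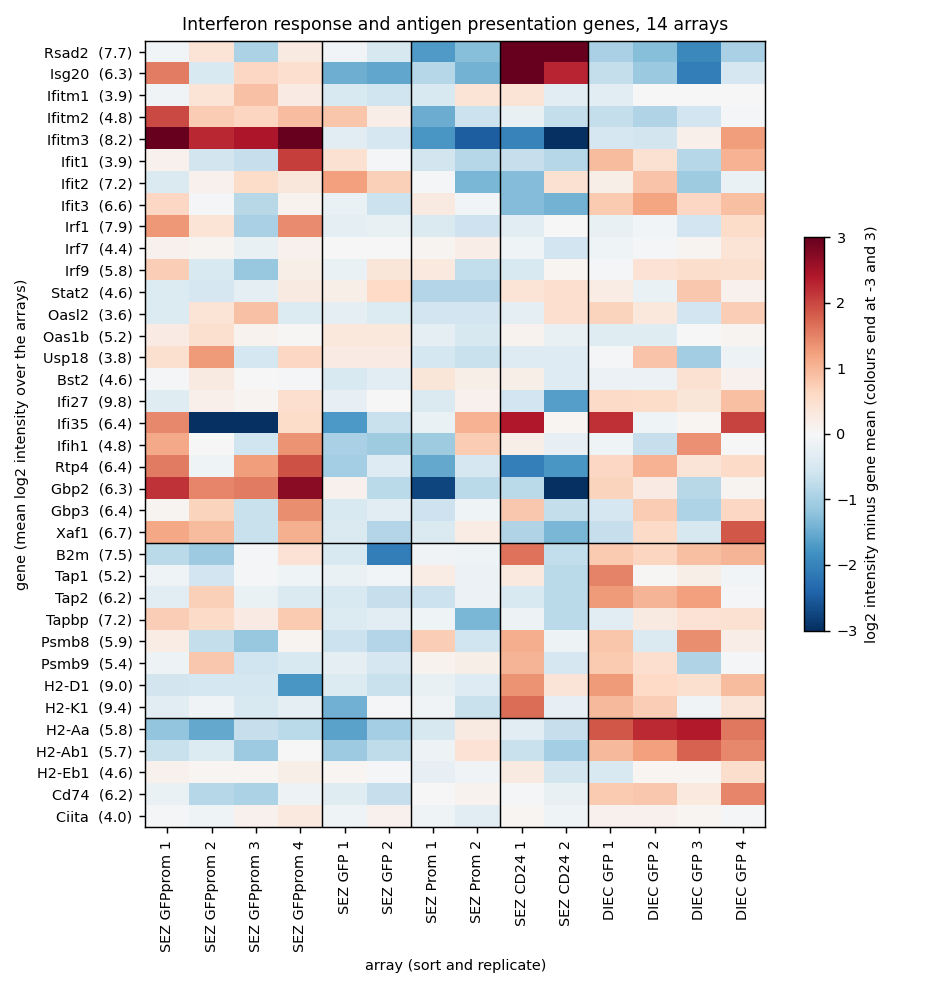
Log2 intensity of the 36 measured members in 14 arrays, each gene minus its own mean over the arrays (given beside its name), with colours ending at -3 and 3, lines between sorts and lines between effectors with regulators, class I and class II genes. The sorts have different high genes: Rsad2 and Isg20 in SEZ_CD24, Ifitm2, Ifitm3 and Gbp2 in SEZ_GFPprom, and H2-Aa, H2-Ab1 and Cd74 in DIEC_GFP.

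Other genes of the pathway were read from lists that hold no member. The share that passed the F test was below the 25.8% of all genes in each list but the last, that of other class II genes. Of 11 interferon and receptor genes, 2 passed (18.2%), the receptor subunits Il10rb and Ifnar2, and the interferons themselves were near or under the array median, with the sort means of Ifnb1 at 12.2 to 15.6 and of Ifng at 6.48 to 10.2. Il10rb, which the type III interferon receptor shares with the interleukin-10 receptor, fell in SEZ_GFPprom by 1.23, in SEZ_GFP by 1.64 and in SEZ_Prom by 1.63 on the log2 scale relative to DIEC_GFP (limma, adjusted p = 0.0128, 0.0097 and 0.0172). Of 14 signal transduction genes 2 passed (14.3%), Irf8 and Pias1. Irf8, a transcription factor of microglia, averaged 37.1 in SEZ_GFPprom and 270 in SEZ_CD24 (log2 difference -2.86, adjusted p = 0.018). Pias1, a SUMO ligase, fell in SEZ_GFPprom by 1.71 relative to DIEC_GFP (0.0243). Of 13 nucleic acid sensors and adaptors 2 passed (15.4%). Tlr3, the endosomal receptor of double-stranded RNA, averaged 36.4, 47.2, 36.3 and 40.8 in SEZ_GFPprom, SEZ_GFP, SEZ_Prom and SEZ_CD24, against 193 in DIEC_GFP, and fell in all 4 SEZ sorts (adjusted p = 0.00211, 0.0169, 0.0124 and 0.00763). Mavs, the adaptor of the cytoplasmic RNA sensors, fell in SEZ_GFPprom by 1.65, in SEZ_GFP by 2.58 and in SEZ_CD24 by 1.41 (0.00866, 0.00261 and 0.0453).

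Of 39 further interferon-stimulated genes, 5 passed the F test (12.8%, against 25.8% of all genes). Ube2l6, the enzyme that conjugates Isg15 to proteins, averaged 36.7 in SEZ_CD24, against 5.73 in SEZ_GFPprom and 5.96 in DIEC_GFP, which lie among the dimmest values of the arrays (6.15-fold over DIEC_GFP, limma, adjusted p = 0.000139). Igtp, an interferon gamma-induced GTPase, was highest in DIEC_GFP (161, against 81.9 in SEZ_GFPprom, 30.8 in SEZ_GFP, 47.5 in SEZ_Prom and 51.2 in SEZ_CD24) and fell in all 4 SEZ sorts (adjusted p = 0.044, 0.00159, 0.015 and 0.00928). The poly(ADP-ribose) polymerases Parp14 and Parp12 fell too, Parp14 in SEZ_GFPprom by 1.8 and SEZ_GFP by 1.46 (0.00188 and 0.0184) and Parp12 in SEZ_Prom by 1.76 (0.00872). Tor3a, an interferon-responsive ATPase, fell in SEZ_CD24 by 1.33 (0.0102). The list's median difference from DIEC_GFP was -0.1, -0.19, -0.07 and -0.13 in SEZ_GFPprom, SEZ_GFP, SEZ_Prom and SEZ_CD24.

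Of 13 other class I genes 2 passed the F test (15.4%, against 25.8% of all genes). Psme1, a proteasome activator subunit that interferon gamma induces, rose 2.1-fold in SEZ_GFPprom and 3.3-fold in SEZ_GFP relative to DIEC_GFP (limma, adjusted p = 0.0142 and 0.00377). Canx, the chaperone calnexin, fell by 0.94 and 1.14 in the same sorts (0.0215 and 0.0274). Of 10 other class II genes 5 passed (50%, against 25.8%). Ctss, the cathepsin that trims the invariant chain, averaged 1020, 299, 2270 and 5240 in SEZ_GFPprom, SEZ_GFP, SEZ_Prom and SEZ_CD24, against 2670 in DIEC_GFP. It fell in SEZ_GFPprom by 1.39 (0.0253) and in SEZ_GFP by 3.16 (0.00111), and SEZ_GFPprom minus SEZ_CD24 was -2.36 (0.00623). Lgmn, an endosomal protease, differed from DIEC_GFP by -2.19 in SEZ_GFPprom and -2.89 in SEZ_GFP (0.0323 and 0.0282) and was likewise highest in SEZ_CD24 (815). H2-Ob, part of the regulator of class II loading, was dim and rose 3.69-fold in SEZ_CD24 relative to DIEC_GFP (49.3 against 13.4, adjusted p = 0.0348). Cd86, a costimulatory ligand of antigen-presenting cells, averaged 14.1 in SEZ_GFPprom and 67.7 in SEZ_CD24 (-2.26, adjusted p = 0.0176), and H2-DMa, a chain of the class II peptide editor, rose 3.33-fold in SEZ_Prom relative to DIEC_GFP (0.0423). Ctss, Lgmn and Cd86 thus had the order of the microglia sums at their ends, lowest in SEZ_GFP and highest in SEZ_CD24, whereas H2-Aa and H2-Ab1 were highest in DIEC_GFP. The part of microglia in these levels was not tested.

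The annotated promoters were read for the elements that these pathways use, in RefSeq windows of 250 bases before to 50 bases after each transcript start (GRCm38.p6, 29 of 37 members matched by symbol). The core of the ISRE, spelled as GAAA, any 2 bases and GAAA, or on the other strand TTTC, any 2 bases and TTTC, stood in 12 of 29 members, against 3.99% of 27025 genes. They were 10 of 16 effectors (Bst2, Gbp2, Gbp3, Ifih1, Ifit1, Ifit3, Ifitm2, Ifitm3, Isg15 and Rsad2), the regulator Stat2 and the class I gene B2m. GAS, spelled TTCNNNGAA, which reads the same on both strands, stood in 7 of 29, against 9.55% of genes, and CCAAT or ATTGG, the letters of the Y box of class II promoters, in 14 of 29, against 41.1%. A match is a description of the letters and not a bound site. Stretches around the matches are printed for genes with different patterns over the sorts, on the gene's own strand, with the ISRE core in capitals. Rsad2 was highest in the CD24 sort, Gbp2 and Ifitm2 in the double-positive sort, and Ifit3 in diencephalic cells, while B2m is the 1 class I member with a core and Bst2, with 2 overlapping cores that a GAS match also overlaps, was not called.
Rsad2 (chr12:26456543-26456592, minus strand): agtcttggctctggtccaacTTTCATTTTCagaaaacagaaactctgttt
Gbp2 (chr3:142620584-142620633, plus strand): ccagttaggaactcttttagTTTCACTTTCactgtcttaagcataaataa
Ifitm2 (chr7:140955978-140956027, minus strand): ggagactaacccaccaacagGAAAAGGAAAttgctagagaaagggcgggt
Ifit3 (chr19:34583353-34583436, plus strand): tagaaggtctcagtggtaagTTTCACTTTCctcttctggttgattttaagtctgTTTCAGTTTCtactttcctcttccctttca
B2m (chr2:122147528-122147577, plus strand): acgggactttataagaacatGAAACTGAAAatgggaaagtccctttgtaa
Bst2 (chr8:71537567-71537622, minus strand): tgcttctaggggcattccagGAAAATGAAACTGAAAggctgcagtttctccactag

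The genes printed were picked for their different patterns, so that they cover these patterns is not a result. For class II, the windows of H2-Aa, which fell in all 4 SEZ sorts, and of H2-Eb1, which was not called, are set side by side with CCAAT or ATTGG in capitals.
H2-Aa (chr17:34287847-34287891, minus strand): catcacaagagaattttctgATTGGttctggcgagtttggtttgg
H2-Eb1 (chr17:34305788-34305856, plus strand): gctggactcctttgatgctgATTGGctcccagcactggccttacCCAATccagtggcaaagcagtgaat
Both hold the letters ATTGG, in H2-Aa with the first base at -48 and in H2-Eb1 at -59 from the annotated start, and H2-Eb1 also holds CCAAT at -35.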

How the data were processed

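Per the labels' protocols, total RNA of the sorted cells was purified on columns with DNase treatment, then amplified and biotinylated in a 2-cycle protocol. The deposited values are intensity values on a linear scale, in whole numbers, made by RMA per the submitters' processing notes, and the version is not given in the sources used here. Small values are thus coarse: 25.4% to 25.7% of probe sets stood at 10 or less on each array. The plan assumed log2 values, so log2 was taken here, without a pseudocount. Array medians were 27 in all 14 arrays.

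Of 45101 probe sets, 64 were controls, 34945 had 1 gene symbol, 932 several and 9160 none in the platform annotation. Those with 1 symbol were named by gene identifier (34741), accession (1) or the platform's symbol (203). Only these entered, and the brightest probe set by mean stood for each of 18193 genes. The tests were two-sided, with limma 3.58.1 in R 4.3.3 (functions lmFit, contrasts.fit, eBayes) on all 14 arrays together, with 9 residual and 2.627 prior degrees of freedom. Adjusted p-values follow Benjamini and Hochberg over all genes, and 0.05 was the threshold. Values given as mean ± SD are log2 intensities.

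The fit was run on simulated data of 18193 genes, of which 67, 67 and 66 changed by 1, 2 and 3 log2 units. It recovered 41.8%, 88.1% and 93.9% of them for SEZ_GFPprom minus DIEC_GFP, and 23.9%, 64.2% and 84.8% for SEZ_GFPprom minus SEZ_CD24. False calls were 3.85% to 9.09% of all calls, the most in SEZ_CD24 minus DIEC_GFP. In the real data far more genes were called (17.8% and 13.7% in the 2 comparisons named first), so these rates need not hold there. The members, wider lists, markers and alternatives were chosen with earlier results of these data known. Values were given for every member past the threshold in a comparison or the F test, and for up to 4 genes of each wider list past the F test with the smallest p (Tor3a and H2-DMa, beyond these in their lists, were added after their values were seen). Same-numbered arrays of SEZ_GFPprom and DIEC_GFP did not deviate together (r = -0.081 to 0.013 across genes). Alternatives were equal array medians, leaving out the dimmer 50% of genes, setting values under 10 to 10, the mean of probe sets, leaving out shared-sequence probe sets, fitting the groups compared alone, a replicate block, the 3' to 5' covariate and leaving out each array.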

Additional observations from a re-analysis of the deposited data

Results flagged for a closer look

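In groups of 4 arrays, the highest or lowest array was set against the rest by Dixon's ratio, its gap to the nearest array over the group's whole range on the log2 scale. Of 72 such groups, 5 passed the critical value for 4 arrays, and chance passes about 1 in 20. DIEC_GFP replicate 1 was low in Ifitm1 (12, against 15 in the other arrays, ratio 1.0) and high in Tap1 (104, against 35 to 42, ratio 0.833). SEZ_GFPprom replicate 3 was low in Xaf1 (65, against 199 to 230, ratio 0.885), replicate 2 in Tap1 (25, against 34 to 36, ratio 0.843) and replicate 4 in H2-D1 (150, against 339 to 349, ratio 0.966). The same H2-D1 array was low by the probe set that gave 160, against 320 to 339 in the other SEZ_GFPprom arrays, and not by the probe set without shared sequence, which gave 98, against 62 to 113.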

How the results depend on the processing

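Of the 43 calls of a member in a comparison, 15 stayed past the threshold under every alternative run and 18 without each array in turn, and 0 changed sign. Not every alternative could be run on each of these 15 calls. They include calls of H2-Aa, H2-Ab1, Cd74 and Isg20, whose probe sets are all marked as shared. The alternative without shared-sequence probe sets was therefore not run on these 4 genes. H2-Aa and H2-Ab1 were also absent from the fit without the dimmer 50% of genes. The number of members called moved by more than 1.5 times as follows. Without shared-sequence probe sets, which leaves 22 members, 4 were called in SEZ_GFPprom minus DIEC_GFP (8 in the fit reported), 1 in SEZ_GFP minus DIEC_GFP (7), 2 in SEZ_Prom minus DIEC_GFP (4), 4 in SEZ_CD24 minus DIEC_GFP (9), 2 in SEZ_GFPprom minus SEZ_GFP (1) and 9 by the F test (15), with fewer members tested. With the 3' to 5' covariate, 3 were called in SEZ_GFPprom minus DIEC_GFP and 2 in SEZ_GFPprom minus SEZ_GFP. With values under 10 set to 10, 4 were called in SEZ_GFP minus DIEC_GFP and 2 in SEZ_Prom minus DIEC_GFP. Without the dimmer 50% of genes, 2 were called in SEZ_Prom minus DIEC_GFP and 3 in SEZ_GFPprom minus SEZ_GFP, and with the mean of probe sets 2 and 2. With the groups compared alone, 1 was called in SEZ_Prom minus DIEC_GFP, 2 in SEZ_GFPprom minus SEZ_Prom (5) and 4 in SEZ_GFPprom minus SEZ_CD24 (9). The cause of these changes was not tested. With a replicate block, although the replicate numbers do not pair the arrays, the counts were 11, 6, 2 and 10 in the comparisons of SEZ_GFPprom, SEZ_GFP, SEZ_Prom and SEZ_CD24 with DIEC_GFP, 1, 4 and 8 in those of SEZ_GFPprom with SEZ_GFP, SEZ_Prom and SEZ_CD24, and 14 by the F test. Leaving out each array in turn gave 6 to 10, 2 to 8, 0 to 4 and 6 to 10 calls against DIEC_GFP, 0 to 2, 2 to 6 and 5 to 11 between SEZ sorts, and 12 to 16 by the F test, where the array left alone in a group is assumed to vary like the other groups. The dimmest members lie near the floor of the arrays, where a difference cannot be resolved.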
